A study of Mus musculus with 9 samples.

Results

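Hepatic progenitor and ductal markers are genes that separate bile duct cells and bipotent liver progenitors from mature hepatocytes. The set holds 10 genes, *Cd44*, *Sox9*, *Krt7*, *Krt8*, *Krt18*, *Krt19*, *Epcam*, *Spp1*, *Prom1* and *Cd24a*. They were chosen by gene symbol while the authors' changes of gene expression between *Srrm2* shRNA and control cells were known, and those changes are not given here. Of the 10, 8 are listed in both deposited tables, which share 13259 genes, and *Epcam* and *Prom1* are listed in neither, so no value is given for them.

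The cells were AML12, a hepatocyte line established from a mouse carrying a transforming growth factor alpha transgene and kept here in medium with insulin, transferrin, selenium and dexamethasone. In all groups RNA was taken with Trizol. The 9 libraries fall into 3 groups of 3, namely cells whose shRNA is labelled control (Ctrl) and cells with 1 of 2 hairpins against *Srrm2* (sh1 and sh2). Hairpins were delivered by lentivirus, and the labels of all 3 groups give 5 days of infection. *Srrm2* encodes a scaffold protein of nuclear speckles. AML12 is 1 cell line, and nothing in the labels says whether the 3 libraries of a group came from separate cultures. Both comparisons were made against the control group. The value used for each gene is its mean normalized count, which DESeq2 averages over all libraries of a comparison. The first mean therefore pools Ctrl with sh1 and the second pools Ctrl with sh2, and neither shows a change between hairpin and control. *Srrm2* itself, at pooled means of 3428 and 3759, cannot check the depletion for this reason. The pooled means sum to 6144608 normalized counts over 13424 genes in the table of shRNA 1 and to 6393456 over 13478 genes in that of shRNA 2.

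In adult liver, bile ducts are lined by cholangiocytes, and after injury cells with both ductal and hepatocyte features appear around the portal tracts. Keratins are intermediate filament proteins that work as pairs of a type II and a type I chain. Hepatocytes carry the pair *Krt8* and *Krt18*, whereas cholangiocytes add *Krt7* (type II) and *Krt19* (type I). *Sox9* is a transcription factor of duct cells and progenitors, *Spp1* encodes the secreted protein osteopontin, and *Cd44*, *Cd24a*, *Epcam* and *Prom1* encode cell surface proteins by which progenitors are sorted.

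The count of a gene rests on reads that map to 1 place, so the sequence of the markers was first compared with the rest of the genome. Of the 1774 windows of 32 bases in the *Krt8* transcript, 65.7% also occurred outside the gene, nearly all of them on chromosome 7. For *Cd24a* the share was 40%, mostly on chromosome 14, and for *Krt18* 11.2%, mostly on chromosome 13. The other markers were largely free of repeats, with 5.86% for *Krt7*, 2.41% for *Sox9*, 0.322% for *Cd44* and 0.0647% for *Krt19*, and 0 of 1476 windows for *Spp1*. Thus the markers that share most sequence with another locus are *Krt8* and *Cd24a*.

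**Figure D1:**
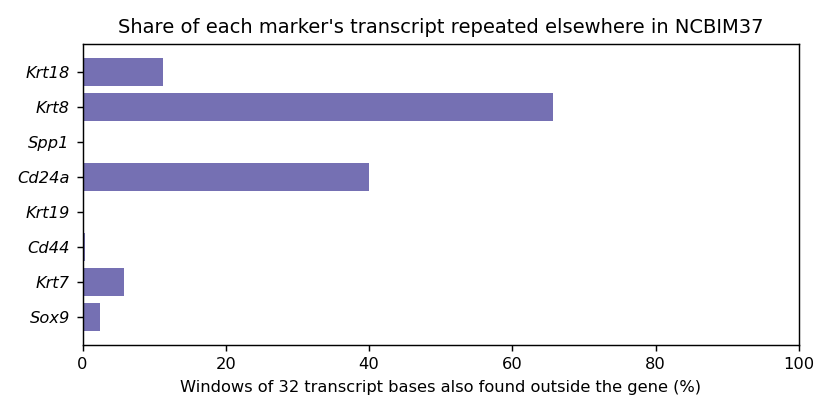
Share of the windows of 32 bases in the longest coding transcript of each marker (x axis, percent) that also occur outside the gene on either strand of NCBIM37. Bars show 65.7% for *Krt8*, 40% for *Cd24a* and 11.2% for *Krt18*, while the other 5 markers lie below 6%.

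The copies have the form of spliced transcripts placed back into the genome. On chromosome 7, 1717 bases of the *Krt8* transcript, which has 9 exons in its gene, align without introns at chr7:24142113-24143830 with 98.84% identical bases, inside an intron of *Nlrp4e*. The *Cd24a* copy aligns over 1314 bases at chr14:120043155-120044468 with 97.56% identity, inside an intron of *Hs6st3*. The *Krt18* copy aligns over 1355 bases at chr13:118246579-118247933 with 92.18% identity and touches no annotated gene. None of the 3 copies overlaps an annotated exon, so reads assigned to them were counted for no gene. The exons of the 8 listed markers overlap no exon of another gene on either strand. To show how close the copies are, 90 coding bases of each gene that include differing bases are given with the same stretch of the copy. Capitals mark the bases that differ. All coordinates are those of NCBIM37. The *Krt8* bases lie in exon 1 at chr15:101834473-101834562 on the - strand and in the copy at chr7:24142252-24142341 on the + strand.
*Krt8* gene: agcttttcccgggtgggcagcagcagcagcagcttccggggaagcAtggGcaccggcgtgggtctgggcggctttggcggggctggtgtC
*Krt8* copy: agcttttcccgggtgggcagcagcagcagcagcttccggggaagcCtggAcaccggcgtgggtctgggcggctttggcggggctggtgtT

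The *Cd24a* bases run from exon 1 into exon 2, between 43299117 and 43302487 of chromosome 10 on the + strand, and lie in the copy at chr14:120043290-120043379 on the + strand.
*Cd24a* gene: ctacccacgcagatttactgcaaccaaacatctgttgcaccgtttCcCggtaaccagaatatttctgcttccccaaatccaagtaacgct
*Cd24a* copy: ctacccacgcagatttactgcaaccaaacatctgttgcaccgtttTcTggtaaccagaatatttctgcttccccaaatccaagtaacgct

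The *Krt18* bases are the first of the coding sequence, in exon 1 at chr15:101858710-101858799 on the + strand, and lie in the copy at chr13:118247793-118247882 on the - strand.
*Krt18* gene: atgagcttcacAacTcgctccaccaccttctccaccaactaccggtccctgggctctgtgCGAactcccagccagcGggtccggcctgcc
*Krt18* copy: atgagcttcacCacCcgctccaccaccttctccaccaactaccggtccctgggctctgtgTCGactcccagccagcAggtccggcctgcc

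The stretch of *Krt8* differs from its copy at 3 of 90 bases, that of *Cd24a* at 2 and that of *Krt18* at 6. A read pair from a part without such a difference matches the gene and the copy alike. Pairs that cross an exon junction are unbroken only in the copy, since it has no introns. Of the 1774 *Krt8* windows, 1551 were found at the gene itself. Where such pairs were placed and how many were lost to the gene was not tested, because the read length is not given in the sources used here.

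Of the 8 listed markers, 6 were among the abundant RNAs of these cells, and *Krt7* and *Sox9* ranked lower. Levels are given as mean normalized counts per kilobase of merged exon, in the order of the tables of shRNA 1 and shRNA 2. The median of the 8 markers was 1762 and 1734, against a median of 43.1 and 44.8 over all listed genes. All 8 lay above the median of all listed genes, 6 lay in the top 10% of listed genes in both tables and 5 in the top 1%. Together the 8 markers held 0.536% and 0.512% of the summed means. No spread over libraries can be given for these levels, so neighbours in the order are not claimed to differ.

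**Figure D2:**
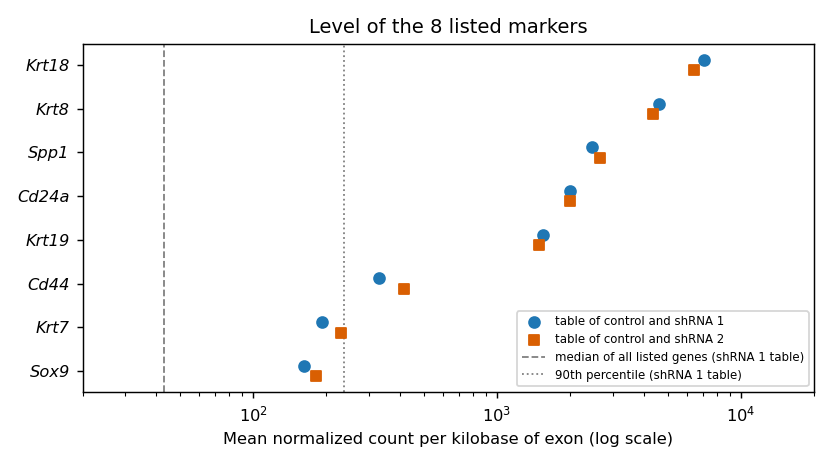
Level of each listed marker as the authors' mean normalized count per kilobase of merged exon (x axis, log scale), circles for the table of Ctrl and sh1 and squares for the table of Ctrl and sh2, with the median and the 90th percentile of all listed genes as vertical lines. *Krt18* is highest at 7034 and 6395, and *Sox9* lowest at 162 and 181; each marker is a pooled mean with no error bar.

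Among the keratins, the hepatocyte pair stood highest. *Krt18* (ENSMUSG00000023043.6, chr15:101858647-101862457, + strand) had pooled means of 9848 and 8953 normalized counts, or 7034 and 6395 per kilobase, and ranked 11 of 13424 and 13 of 13478 genes. *Krt8* (ENSMUSG00000049382.9, chr15:101827142-101834773, - strand) had means of 8292 and 7840, or 4594 and 4343 per kilobase. The genes of this pair are neighbours, with 23.9 kb between them. The level of *Krt18* was 1.53 and 1.47 times that of *Krt8* per kilobase, a ratio that includes the difference in repeated sequence given above.

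The ductal keratins were lower. *Krt19* (ENSMUSG00000020911.8, chr11:100002124-100009979, - strand) had means of 2851 and 2753, or 1537 and 1484 per kilobase, which put it at ranks 110 and 120. *Krt7* (ENSMUSG00000023039.9, chr15:101241474-101260744, + strand) had means of 1351 and 1617, or 192 and 229 per kilobase. The exons of all *Krt7* transcripts add up to 7049 bases and those of its longest coding transcript to 4094 bases, and by the latter its levels were 330 and 395. *Krt8* was thus 24 and 18.9 times *Krt7* per kilobase of merged exon, and 13.9 and 11.0 times by the coding transcript. *Krt18* was 4.58 and 4.31 times *Krt19* per kilobase of merged exon, and 3.89 and 3.66 times by the coding transcript. The pair *Krt8* and *Krt18* made up 87.1% and 86.2% of the summed level of the 4 keratins. The type I chains summed to 1.79 and 1.72 times the type II chains. These comparisons also include the difference in repeated sequence. The windows found elsewhere were 65.7% for *Krt8* and 11.2% for *Krt18*, against 5.86% for *Krt7* and 0.0647% for *Krt19*. How far this affects the ratios was not tested.

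Of the 50 keratin genes in the annotation, 6 reached 10 normalized counts on average in both tables, these being the 4 above, *Krt20* and *Krt80*. *Krt20*, a type I keratin best known from the intestine, had means of 1400 and 1054, or 726 and 547 per kilobase, so it stood between *Krt19* and *Krt7*. *Krt80* had 50.8 and 49.9 per kilobase. Of the 16 other keratins on the list, 11 are listed in neither table, among them the basal cell keratins *Krt5* and *Krt14*. *Krt10*, *Krt12* and *Krt23* had means below 10. Of 6 proteins that link keratins to the membrane and to other filaments, 5 had a mean of at least 10. The highest per kilobase in the table of shRNA 1 were *Plec* (plectin) at 748, *Ppl* (periplakin) at 450 and *Dsp* (desmoplakin) at 373, *Dst* had 340 and *Evpl* 3.91. *Eppk1* is not in the annotation under this symbol.

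*Spp1* (ENSMUSG00000029304.8, chr5:104864137-104870069, + strand) had pooled means of 4033 and 4367, or 2448 and 2650 per kilobase, at ranks 60 and 57. Osteopontin binds integrins through the tripeptide Arg-Gly-Asp, and *Cd44* is described as a further receptor. The 3 codons are given in capitals, from exon 5 at chr5:104868476-104868532, because integrins with the alpha V chain bind there.
*Spp1* gene: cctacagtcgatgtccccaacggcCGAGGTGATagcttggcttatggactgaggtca

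Of 7 integrin subunits that take part in osteopontin binding, 5 had a mean of at least 10. Per kilobase in the table of shRNA 1, *Itgb1* had 1452, *Itgav* 335, *Itga5* 170, *Itgb5* 69.2 and *Itgb3* 33.8. *Itga4* and *Itga9* are listed in neither table. Per kilobase of merged exon, RNA of the secreted ligand was 1.69 and 1.88 times that of the common beta 1 chain in the 2 tables. It was 7.30 and 6.29 times that of the alpha V chain. By the longest coding transcript these ratios were 1.72 and 1.92 for the beta 1 chain and 5.24 and 4.51 for the alpha V chain.

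*Cd44* (ENSMUSG00000005087.10, chr2:102651298-102741822, - strand) encodes the hyaluronan receptor and had means of 2258 and 2845, or 330 and 415 per kilobase, at ranks 853 and 652. Its RNA is known for alternative splicing of a run of variable exons in the extracellular part. The annotation holds 13 coding transcripts. The longest complete one has 19 exons and 2343 coding bases and the shortest 9 exons and 1098 coding bases. Between them, 10 exons with 1245 bases, from 102671487 to 102688939, are in the longest and overlap no exon of the shortest. The deposited values are per gene, so which of these exons the RNA held was not measured. Splicing of these exons in epithelial cells is known to depend on *Esrp1* and *Esrp2*. *Esrp1* is listed in neither table and *Esrp2* had 44.4 per kilobase in the table of shRNA 1, the lowest of the 8 splicing regulators listed. The highest were the helicase *Ddx5* at 693, *Hnrnpl* at 323 and *Tra2a* at 192. *Srrm1*, the partner of *Srrm2* in the splicing coactivator, had 112.

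Of 14 genes for the synthesis and breakdown of hyaluronan and for proteins that bind or cut Cd44, 11 had a mean of at least 10. *Ezr* (ezrin) at 949 and *Msn* (moesin) at 694 per kilobase, which tie Cd44 to the actin cortex, were the highest, followed by the membrane protease *Mmp14* at 409. The third linker of this family, *Rdx* (radixin), had 252, below *Cd44* itself. The hyaluronan synthases were low or missing, with *Has1* and *Has2* listed in neither table and *Has3* at means of 5.73 and 6.39.

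*Cd24a* (ENSMUSG00000047139.8, chr10:43298975-43304068, + strand), a small surface glycoprotein, had means of 3602 and 3599, or 1987 and 1985 per kilobase, at ranks 80 and 81. *Sox9* (ENSMUSG00000000567.4, chr11:112643538-112649074, + strand) had means of 670 and 750, or 162 and 181 per kilobase, the lowest of the 8 markers listed.

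The label of the set was compared with further ductal and progenitor markers. Of 19 such genes, 11 reached a mean of 10 in each table, with a median level of 91.2 per kilobase. *Bicc1* had 642, *Sox4* 378, and *Pkhd1*, the fibrocystin gene of duct cilia, had 162. *Cldn4*, *Cldn7* and *Dlk1* are listed in neither table, as are *Epcam* and *Prom1*. The label is not borne out by *Epcam* and *Prom1*, which are missing from tables whose lowest means were 1.56 and 1.92. Why they are not listed was not tested. *Krt8* and *Krt18* are also hepatocyte keratins. This leaves *Krt7*, *Krt19*, *Sox9*, *Spp1*, *Cd24a* and *Cd44*. Whether *Spp1*, *Cd24a* and *Cd44* are particular to duct cells or progenitors was not tested, so the label holds only in part.

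Hepatocyte markers were present beside them. Of 18, 11 had a mean of at least 10, led by *Ttr* at 2049, *Apob* at 1449 and *Alb* at 1053 per kilobase in the table of shRNA 1. *Krt19* was 1.46 and 1.67 times *Alb* in the tables of shRNA 1 and shRNA 2. *Cyp2e1*, *G6pc*, *Pck1* and *Asgr1*, genes of mature hepatocytes, are listed in neither table. Markers of other liver cells were low or not listed. None of 6 endothelial markers is listed, none of 7 stellate cell and fibroblast markers reached a mean of 10 (*Des*, *Col1a1* and *Gfap* are listed below it), and of 6 macrophage and leukocyte markers *Cd68* had pooled means of 25.1 and 29.8 and *Csf1r* of 26.2 and 27.3 normalized counts, while *Ptprc* stayed below 10. In bulk RNA, fewer cells of a type and less RNA per cell cannot be told apart, so these values do not say whether ductal and hepatocyte RNAs lay in the same cells.

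**Figure D3:**
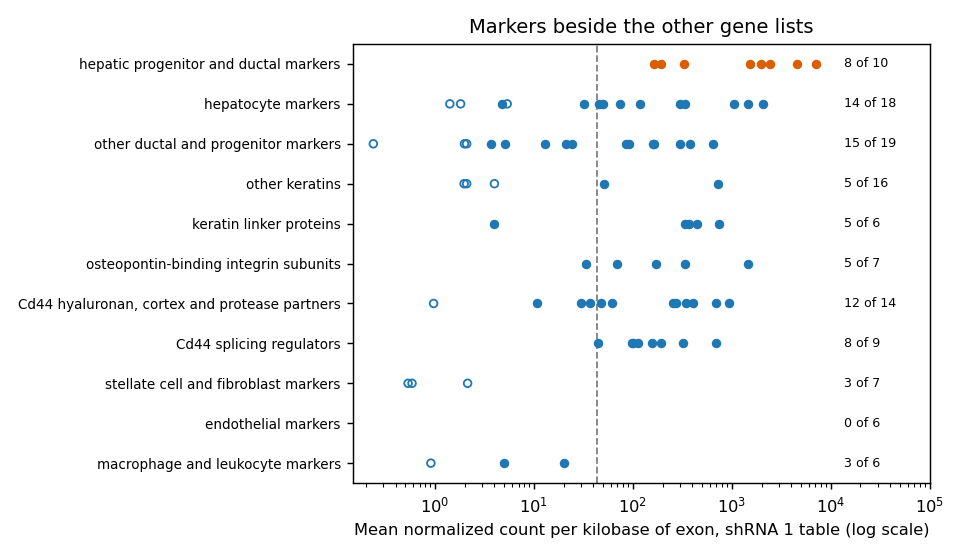
Level per kilobase of merged exon in the table of Ctrl and sh1 (x axis, log scale) of every listed gene of the marker set (orange) and of 10 other lists (blue), with open circles for means below 10, the number listed of the number of genes at the right, and the median of all listed genes as a dashed line. All 8 listed markers lie to the right of the dashed line, and no endothelial marker is listed.

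The means of the tables were then set against each other. Since both contain the same control group, their ratio can differ from 1 only through the hairpin groups, scaling and sampling, and the shared controls draw it towards 1. After division by the median ratio of all genes, none of the 8 markers had a scaled mean more than 25% higher in 1 table than in the other. Of the 11451 genes that reached a mean of 10 in each table, 949 did, or 8.29%. Many of these genes had lower counts than the markers. At a minimum mean of 100, which all 8 markers reached, the share of genes was 4.20%. The scaled ratios of the markers ran from 0.835 to 1.16 with a median of 1.01, 4 above 1 and 4 below.

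Keratins and surface markers lay on both sides of 1. *Krt18* at 1.16, *Krt8* at 1.11, *Krt19* at 1.09 and *Cd24a* at 1.05 had the higher mean in the table of shRNA 1. *Cd44* at 0.835, *Krt7* at 0.878, *Sox9* at 0.938 and *Spp1* at 0.971 had the higher mean in that of shRNA 2. *Cd44* had the lowest ratio of the 8, at percentile 6.31 of all genes, and *Krt7* followed at percentile 11.4. Among the 2870 genes that reached a mean of 500 in the table of shRNA 1, as all 8 markers did, the 5th and 95th percentiles of the ratio were 0.883 and 1.19, and *Cd44* and *Krt7* were below the first of these. Without replicate values, no difference between the hairpins is claimed from these ratios.

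**Figure D4:**
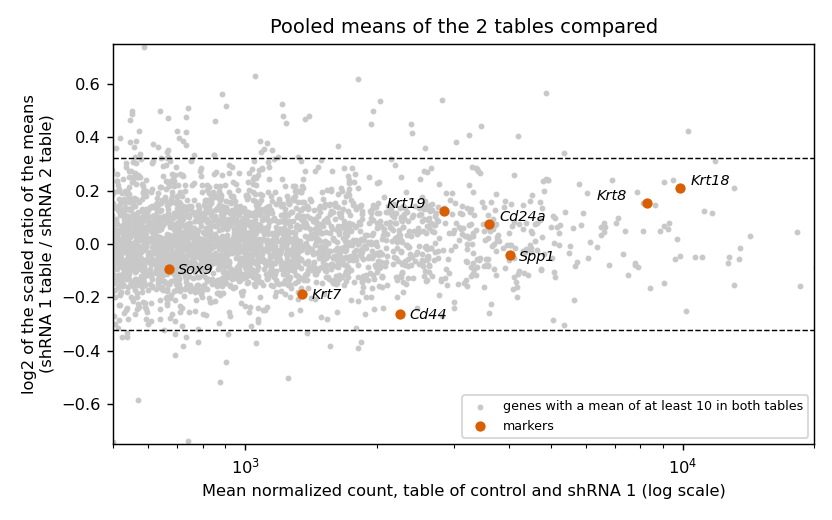
Scaled ratio of the pooled means (y axis, log2; the table of Ctrl and sh1 over that of Ctrl and sh2) against the mean normalized count (x axis, log scale, from 500), for the other genes in grey and the markers in orange, with dashed lines where 1 mean exceeds the other by 25%. Genes outside the frame are not drawn; all 8 markers lie between the dashed lines, from 0.835 for *Cd44* to 1.16 for *Krt18*.

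Partners of the markers gave the following ratios. The 5 integrin subunits ran from 0.837 for *Itgav* to 1.08 for *Itgb1*. None of them and none of the 8 splicing regulators lay past the limit of 25%. Among the other keratins with a value, *Krt20* lay past this limit at 1.40, and of the linker proteins *Ppl* at 1.45 and *Evpl* at 1.84 did, all with the higher mean in the table of shRNA 1. Among the other ductal and progenitor markers, *Sox4* at 0.764 and *Mmp7* at 0.543 had the higher mean in the table of shRNA 2. Of the *Cd44* partners, *Hmmr*, a further hyaluronan receptor, had 1.45 and *Cd74* 0.486. The hepatocyte markers past the limit were *Cps1* at 1.38, *Fgb* at 1.52 and *Ass1* at 0.627, and *Alb*, at 1.247, lay just inside it.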

How the data were processed

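RNA-seq of AML12 cells was used, with 3 libraries each for the control hairpin (Ctrl), *Srrm2* shRNA 1 (sh1) and shRNA 2 (sh2), grouped by sample title. The authors mapped read pairs with TopHat2 against mm9 and retained concordant pairs with a unique position. The authors then obtained counts for the genes of GENCODE M1 by HTSeq, and the authors used DESeq2 version 1.8.2 for normalization. The authors' signal, used here, is the mean normalized count of each gene, that is gene counts divided by size factors and averaged over the libraries of a comparison. The deposited tables also hold the authors' log2 fold changes, standard errors, test statistics, p-values and adjusted p-values. These columns are results of the authors' own comparisons and were not used. No value per library was used, so there is no spread over libraries, no test and no count interval, and the depth of a library is unknown.

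All 13424 and 13478 gene identifiers matched GENCODE M1 on NCBIM37, the assembly of mm9. Levels were divided by the kilobases of merged exons. The ratio of the pooled means was divided by its median of 0.951 over the 11451 genes that reached a mean of 10 in each table, and genes whose scaled mean was over 25% higher in 1 table than in the other were counted. This scaling was tested on simulated data without noise or shared controls, which checks its arithmetic only and says nothing of the error of a ratio. Windows of 32 bases of the longest coding transcript were searched on both strands of NCBIM37, and the copies found were aligned with Biopython 1.88. The markers and the 10 other lists were chosen with earlier results of these data known, and the search for copies and the limit of 500 counts were added after levels had been seen. Beside the markers, *Srrm2* and *Alb*, the 3 genes of each list with the highest level per kilobase were to be named, as well as the genes behind any count of 5 or fewer. Some genes of the lists are not reported here by name. Alternatives were other lengths, scalings and minimum means. Python 3.11.15, numpy 2.4.6, pandas 2.3.3 and matplotlib 3.10.9 were used.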

Additional observations from a re-analysis of the deposited data

How the results depend on the processing

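No spread over libraries enters any value, so a count or share was taken as moved when it changed by over 1.5 times. Of 36 alternative counts and shares, 28 stayed within 1.5 times. The number of markers in the top 10% of listed genes was 7 by the longest coding transcript or without division by length, where *Krt7* joined the 6. Without scaling, 1 marker, *Cd44*, lay past the limit of 25%, at a ratio of 0.794. The share of all genes past the limit was 4.20% at a minimum mean of 100, 13.3% with no minimum and 1.55% with the limit at a ratio of 1.5. A minimum mean of 100 left 7 of the other ductal and progenitor markers and 0 macrophage and leukocyte markers, and with no minimum 4 other keratins and 2 stellate cell and fibroblast markers had values. Of 16 alternative levels of single markers, 1 moved by over 1.5 times, that of *Krt7* by the coding transcript. No paired analysis was possible because the values used are pooled over libraries, and leaving out a replicate was not run for the same reason. The 32-base windows say nothing of longer reads or of pairs, and a mean pooled over control and hairpin libraries limits every ratio given.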
